A study of Mus musculus with 8 samples.

Results

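The genes described here encode ligands, receptors, inhibitors and response genes of WNT, FGF, TGF-beta and Notch signalling. They were taken by symbol: a gene belonged if its name began with Wnt, Fzd, Dkk, Sfrp, Fgf, Fgfr, Bmp, Tgfb, Smad, Inhb, Notch, Jag, Dll, Hes or Hey in the form that these families use. This found 48 of the 9294 genes with a symbol of their own in the table, and each of the 48 was read by 1 probe set. There were 18 WNT genes, 10 FGF genes, 12 genes of the TGF-beta and BMP branch and 8 Notch genes. A pair of them matched by name but are not components of the pathways in the usual sense. Fgf2os is an antisense RNA named after Fgf2, and Tgfb1i1 encodes Hic-5, an adaptor of focal adhesions that was named for its induction by TGF-beta. Notch receptors, Jagged ligands, FGF receptors and TGF-beta and BMP receptors were not analysed here. Nor were Tgfb2, Bmp7, Inhba, Inhbb, Smad2, Smad3, Smad4, Smad7, Wnt4, Fgf2, Fgf7, Dkk1 and Sfrp1, among others. What is said below of a family holds only for its members among the 48.

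The study measured total RNA of mouse keratinocytes, the epithelial cells of the epidermis, on 8 one-colour arrays. All cultures were of the C57BL/6 strain and had been transduced 3 days earlier with v-rasHa, a viral oncogenic form of Hras. The 4 wild-type RAS samples carried intact Nfkbiz, and the 4 knockout RAS samples were Nfkbiz KO and lacked this gene, whose product IkBz is a nuclear cofactor of NF-kB. Both genotypes carried the oncogene, and no culture without it was measured. The comparison therefore asks how loss of Nfkbiz changes transcript levels in keratinocytes transduced with v-rasHa. The labels call the 4 samples of each genotype biological replicates and do not give the age of the mice or how many animals each culture came from.

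The 4 pathways carry signals between neighbouring cells. WNT ligands bind Frizzled receptors and stabilise beta-catenin or act on cell polarity, and they drive hair follicle formation. TGF-beta and BMP ligands act through receptor kinases and SMAD proteins, with TGF-beta known as a growth inhibitor of keratinocytes. FGF ligands act through receptor tyrosine kinases, often from dermal cells to epithelium. Notch is a receptor for ligands on adjoining cells, and it promotes differentiation of epidermal cells through Hes and Hey repressors.

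Values are log2 signals, on which a difference of 1 is a doubling, and fold changes are knockout minus wild-type. Array medians lay between 4.49 and 4.57, and lower quartiles between 3.33 and 3.39. Of the 48 signalling genes, 29 had a mean below all array medians and 14 of those also lay below all lower quartiles, where signal and background cannot be told apart without detection calls. Among 7 measured keratinocyte markers none lay below the array medians, and Krt5, the basal keratin, ran from 13.25 to 13.46 across the arrays. Of the 7, 1 fell, the hemidesmosome collagen gene Col17a1, with a log2 fold change of -0.31 (limma adjusted p = 0.0154). Krt5 had -0.13 and an adjusted p of 0.167, with all knockout arrays below all wild-type arrays. The linear signals of the 7 markers summed to 28265 to 29263 in wild-type and 26852 to 28468 in knockout arrays. Of 8 fibroblast markers, 6 fell and Postn rose, with a median log2 fold change of -0.54, and their linear signals summed to 788 to 855 in wild-type and 518 to 596 in knockout arrays. Of 4 melanocyte markers 2 fell, with sums of 2844 to 2980 and 2208 to 2711. Of 10 leukocyte markers 1 fell, with sums of 307 to 342 and 286 to 301. None of the 6 endothelial markers passed the limma test, with 1, Pecam1, at an unadjusted p under 0.05, and their sums were 109 to 115 and 97 to 115. Beside these marker calls, 4.47% of all genes tested were called higher and 4.43% lower. An unadjusted p under 0.05 by limma was found in 2 of the 7 keratinocyte and 7 of the 8 fibroblast markers. It was also found in all 4 melanocyte and 4 of the 10 leukocyte markers, beside 20.8% of all genes. All 4 melanocyte and 9 of the 10 leukocyte markers had a negative log2 fold change, and 1 leukocyte marker a positive one. Below all array medians lay 2 of the 8 fibroblast, 6 of the 10 leukocyte and 4 of the 6 endothelial markers. A signal there does not show that the cell type was present. The part of any of these cells in the results that follow was not tested. In bulk RNA, fewer cells of a type and less RNA per cell give the same reading.

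In the knockout cells, 4 signalling genes rose and none fell. The genes that rose were all ligands: Wnt10a and Wnt11 of the WNT family, Tgfb3 and Bmp2. Wnt10a rose 1.72-fold and Tgfb3 rose 1.66-fold, while Wnt11 and Bmp2 rose by 0.26 and 0.22 on the log2 scale. The count of 4 among 48 is 8.33%, beside 4.47% of all genes tested that were called higher. For falls the count was 0 of 48, beside 4.43% of all genes. These counts come from limma with Benjamini-Hochberg adjustment over the 9294 genes at 0.05. Of the 48, 13 (27.1%) had an unadjusted p under 0.05, beside 20.8% of all genes. Only 2 members, Wnt10a and Tgfb3, rose when the wild-type array of replicate 1 or 4 was left out, and the same 2 when the knockout array of replicate 1, 2 or 3 was. With repeated quantile normalization, with trend and robust variance or with dim genes left out, 1 member, Tgfb1, passed as a fall. Without wild-type RAS replicate 1, Wnt3a passed as a fall with an adjusted p of 0.0475. Among the 19 members that did not lie below the array medians 4 rose, beside 7.54% of all such genes. With so few genes called, these shares describe the members and are not a result about the families. The median log2 fold change of the 48 was -0.01, the same as the -0.01 of all genes.

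**Figure D1:**
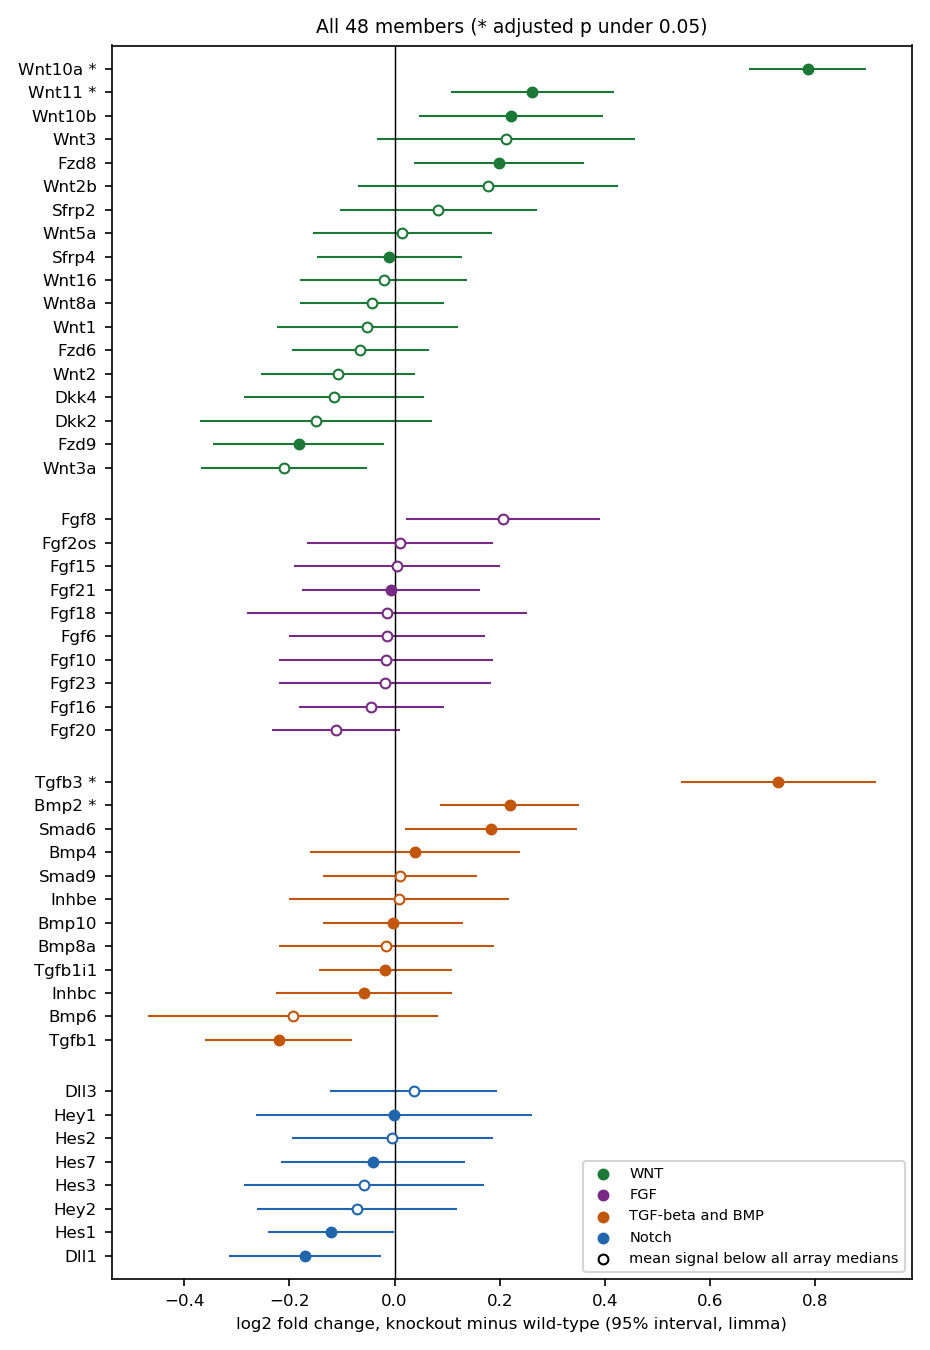
Log2 fold change, knockout minus wild-type, of each of the 48 signalling genes on the horizontal axis, with its 95% interval from limma; colours mark the 4 families, open circles mark genes with a mean signal below all array medians, and an asterisk marks an adjusted p under 0.05. Wnt10a at 0.79 and Tgfb3 at 0.73 stand to the right of all other members, which lie between -0.22 and 0.26.

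The largest difference among the signalling genes was in Wnt10a (probe set 1460657_at), which encodes a WNT ligand of the beta-catenin branch that is needed for hair follicles and teeth. Its log2 signals were 8.91, 8.90, 8.87 and 8.88 in the wild-type arrays and 9.72, 9.67, 9.72 and 9.59 in the knockout arrays. The groups did not overlap, and the lowest knockout array lay well above the highest wild-type array. The mean rose from 8.89 ± 0.02 to 9.68 ± 0.06 (SD, n = 4 per group), a log2 fold change of 0.79 ± 0.05 (SE) with a 95% interval of 0.67 to 0.90 and a limma adjusted p of 2.62e-06. The call held in all 14 alternatives, with values of 0.77 to 0.81.

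Wnt10b, the closest relative of Wnt10a among these genes and likewise a ligand of the beta-catenin branch, did not pass the test. Its wild-type arrays read 5.71, 5.52, 5.94 and 5.66, and its knockout arrays 5.94, 5.94, 5.92 and 5.90. Wild-type replicate 3 lay among the knockout values, so the groups overlapped. The log2 fold change was 0.22 ± 0.08 (SE) with an adjusted p of 0.129 (limma), and without wild-type RAS replicate 3 it passed with an adjusted p of 0.0151.

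Wnt11 (probe set 1450772_at), a ligand known mainly for polarity signalling that does not use beta-catenin, rose slightly. Its signals were 5.69, 5.98, 5.78 and 5.72 in wild-type and 6.01, 5.99, 6.06 and 6.15 in knockout arrays. The knockout values were all higher, but wild-type replicate 2 lay just under the lowest of them. The log2 fold change was 0.26 ± 0.07 (SE), with a 95% interval of 0.11 to 0.42 and an adjusted p of 0.0422 by limma. Leaving out wild-type RAS replicate 1, 3 or 4, or any knockout RAS replicate, ended this call, with log2 fold changes of 0.23 to 0.28 and adjusted p of 0.0634 to 0.110. Repeated quantile normalization ended it too (adjusted p = 0.0601).

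Wnt11 is the only one of the 4 genes that rose for which a RefSeq promoter window was used here, and it is shown because it holds a match to the TCF and LEF core, the letters through which beta-catenin complexes bind DNA. The window lies at chr7:98834862-98835161 of GRCm38.p6 on the plus strand and covers 250 bases before to 50 bases after a transcript start. The capitals mark the letters ATCAAAG, which begin 51 bases before the start.

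Wnt11 promoter: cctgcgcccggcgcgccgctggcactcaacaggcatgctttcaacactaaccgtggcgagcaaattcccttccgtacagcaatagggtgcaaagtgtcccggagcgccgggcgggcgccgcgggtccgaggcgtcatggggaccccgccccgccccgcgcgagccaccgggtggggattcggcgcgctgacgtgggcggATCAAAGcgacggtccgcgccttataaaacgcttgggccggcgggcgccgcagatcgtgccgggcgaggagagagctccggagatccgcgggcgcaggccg

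A second Wnt11 window, at a later transcript start, held none of the motifs searched. Windows were found for 30 of the 48 genes, 32 windows in all, and both strands were searched. The TCF and LEF core ATCAAAG was in the windows of Wnt11 and Fgf6, 2 of 32, beside 3.73% of all 32851 windows of the same length. The core bound by RBPJ, the DNA-binding partner of Notch, TGGGAA, was in 7 of 32 (25.6% of all windows), and the SMAD box CAGACA was in 7 of 32 (21.0% of all). AP-1 sites, TGANTCA, were in 1 of 32 (7.81% of all), in a window of Dll1. The NF-kB consensus was in 7 of 32 windows, those of Dll1, Dll3, Fgf18, Sfrp2, Tgfb1, Wnt10b and Wnt16, beside 8.46% of all. None of these 7 genes passed the limma test in the comparison, and their lowest adjusted p was 0.0572. Over all genes, 4.47% were called higher and 4.43% lower. Of the 7, 3 had an unadjusted p under 0.05, beside 20.8% of all genes. With so few genes, these counts cannot show whether a match goes with a change. A match describes letters in a window, and no binding was measured.

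The other 8 WNT ligands did not pass the test, and all of them had mean signals below the array medians. Wnt3a, a ligand of the beta-catenin branch, read 4.33, 4.54, 4.66 and 4.42 in wild-type and 4.28, 4.34, 4.22 and 4.26 in knockout arrays, a log2 fold change of -0.21 ± 0.07 (SE) with an adjusted p of 0.108 by limma. Its groups overlapped through wild-type replicate 1. Wnt3, whose probe set carries the suffix of those that can bind related transcripts, had 0.21 ± 0.11, and Wnt2b had 0.18 ± 0.11. Wnt5a, the best known ligand of the branch without beta-catenin, read 3.46, 3.65, 3.72 and 3.68 in wild-type and 3.75, 3.70, 3.46 and 3.65 in knockout arrays. The Wnt5a ranges covered each other almost fully, and its log2 fold change of 0.01 had a 95% interval of -0.16 to 0.18. Wnt1, Wnt2, Wnt8a and Wnt16 had log2 fold changes between -0.11 and -0.02.

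Frizzled receptors gave differences of both signs, none of which passed. Of the 3, 2 had an unadjusted p under 0.05 by limma, Fzd8 and Fzd9, beside 20.8% of all genes. Fzd8, a receptor for WNT ligands, read 5.74, 5.93, 5.66 and 5.76 in wild-type and 6.01, 5.89, 6.11 and 5.87 in knockout arrays, a log2 fold change of 0.20 ± 0.07 (SE) with an adjusted p of 0.142 (limma). Fzd9 read 5.17, 4.91, 5.01 and 4.84 against 4.77, 4.89, 4.74 and 4.80, a log2 fold change of -0.18 ± 0.07 with an adjusted p of 0.181. In both genes the groups overlapped. Fzd6, which orients hair follicles, had -0.06 ± 0.06, and its 4 knockout values lay between 4.36 and 4.40, within the wild-type range of 4.31 to 4.55.

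None of the 4 secreted WNT inhibitors passed the limma test, and none had an unadjusted p under 0.05, beside 20.8% of all genes. Dkk2 and Dkk4, of the Dickkopf family that blocks WNT co-receptors, had log2 fold changes of -0.15 ± 0.10 and -0.12 ± 0.08 (SE). Sfrp2 and Sfrp4, secreted proteins that bind WNT ligands and are made by dermal fibroblasts, had 0.08 ± 0.09 and -0.01 ± 0.06. Sfrp4 was the only one of the 4 above the array medians, with arrays between 5.41 and 5.67.

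Of the TGF-beta ligands, Tgfb3 rose, while Tgfb1 had a log2 fold change of the opposite sign that did not pass. Tgfb3 (probe set 1417455_at), a TGF-beta isoform known for its part in palate fusion and wound repair, read 5.07, 5.38, 5.33 and 5.31 in wild-type and 5.93, 6.18, 6.01 and 5.89 in knockout arrays. Every knockout array lay above every wild-type array, with wild-type replicate 1 the lowest of all. The mean rose from 5.27 ± 0.14 to 6.00 ± 0.13 (SD, n = 4 per group), a log2 fold change of 0.73 ± 0.08 (SE) with a 95% interval of 0.54 to 0.91 and a limma adjusted p of 0.000217. The call held in all 14 alternatives, with values of 0.66 to 0.77.

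Tgfb1, the gene of the most widely expressed TGF-beta isoform, was lower in the knockout arrays but did not pass the test. Its signals were 6.27, 6.34, 6.32 and 6.51 in wild-type and 6.13, 6.21, 6.06 and 6.16 in knockout arrays. The groups did not overlap, although wild-type replicate 1 and knockout replicate 2 were close. The log2 fold change was -0.22 ± 0.06 (SE), with a 95% interval of -0.36 to -0.08 and an adjusted p of 0.0572 (limma). With repeated quantile normalization the adjusted p was 0.0271, with trend and robust variance 0.0354 and with the lowest 25% of genes left out 0.0393. Over its other alternatives it ran from 0.0540 to 0.149. Tgfb1 was the only member whose knockout values all lay below its wild-type values, where 7.97% of all genes did so, and 4 members, those that rose, had all knockout values above, where 7.91% of all genes did so.

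**Figure D2:**
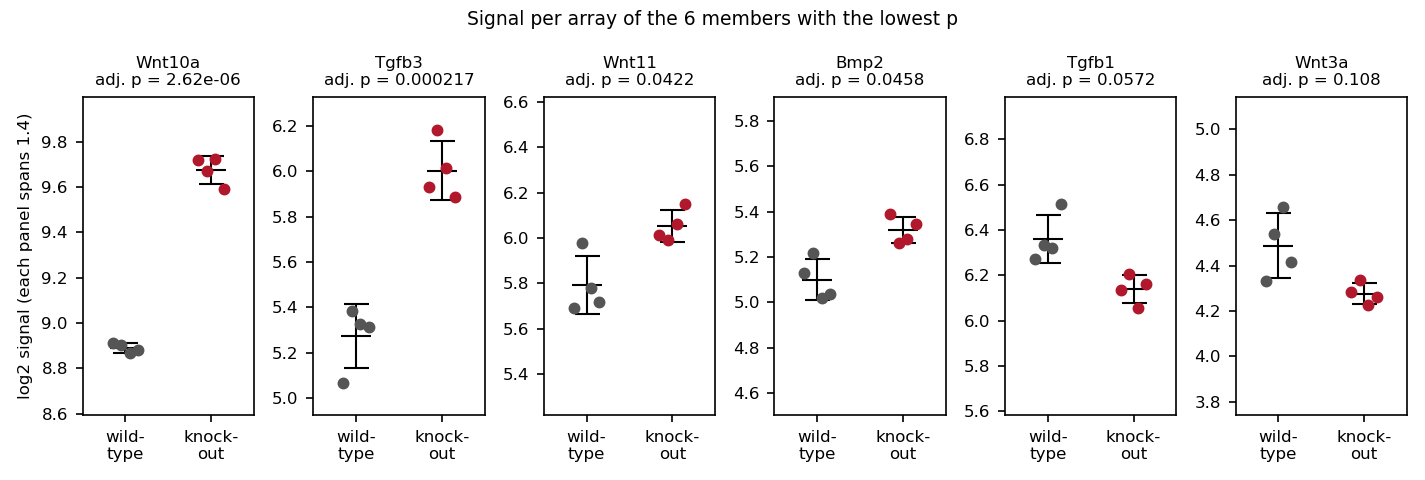
Log2 signal of each array for the 6 signalling genes with the lowest p, wild-type in grey and knockout in red, with the mean and SD of the 4 arrays of a genotype in black; each vertical axis spans 1.4 log2 units. Wnt10a and Tgfb3 show a wide gap between the genotypes, Wnt11, Bmp2 and Tgfb1 a narrow gap, and Wnt3a overlapping groups.

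Among BMP ligands, Bmp2 (probe set 1423635_at), which acts in hair follicle cycling and keratinocyte differentiation, rose slightly. Its signals were 5.13, 5.22, 5.02 and 5.04 in wild-type and 5.39, 5.26, 5.28 and 5.35 in knockout arrays. The knockout arrays were all higher, with knockout replicate 2 close to wild-type replicate 2. The log2 fold change was 0.22 ± 0.06 (SE), with a 95% interval of 0.09 to 0.35 and an adjusted p of 0.0458 by limma. The call was not kept when wild-type RAS replicate 1, 3 or 4 or any knockout RAS replicate was left out, with log2 fold changes of 0.19 to 0.24 and adjusted p of 0.0682 to 0.123, nor with trend and robust variance (adjusted p = 0.0721).

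Bmp4, a ligand close to Bmp2 in structure and in the receptors it uses, did not pass. Its signals were 5.39, 5.39, 5.64 and 5.22 in wild-type and 5.52, 5.32, 5.58 and 5.38 in knockout arrays. The groups were mixed, and the log2 fold change of 0.04 had a 95% interval of -0.16 to 0.24, which overlaps that of Bmp2. Bmp6, a ligand found in suprabasal epidermis, had -0.19 ± 0.12 (SE), the widest interval on the lower side of all members not called, reaching -0.47. Bmp8a and Bmp10, the latter best known from the heart, had -0.02 ± 0.09 and -0.00 ± 0.06. The activin subunit genes Inhbc and Inhbe, expressed mainly in liver, had -0.06 ± 0.08 and 0.01 ± 0.10.

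Of the SMAD genes, Smad6 encodes an inhibitor of BMP signalling and Smad9 a transducer of it. Smad6 read 4.78, 4.76, 4.79 and 4.90 in wild-type and 5.04, 5.09, 5.06 and 4.78 in knockout arrays. In 3 of 4 knockout arrays it lay above all wild-type values, and knockout replicate 4 lay among them. The log2 fold change was 0.18 ± 0.07 (SE) with an adjusted p of 0.18 (limma), and without knockout RAS replicate 4 it passed with an adjusted p of 0.0243. Smad9 had 0.01 ± 0.07, and Tgfb1i1, with arrays between 6.88 and 7.09, had -0.02 ± 0.06.

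No FGF gene passed the limma test, where 4.47% of all genes were called higher and 4.43% lower. With 10 genes this is not a result about the family. Of the 10, 1 had an unadjusted p under 0.05, beside 20.8% of all genes. That gene was Fgf8, a ligand of limb and brain development, with 2.94, 2.78, 2.76 and 2.75 in wild-type and 3.19, 3.12, 2.83 and 2.92 in knockout arrays. Its values overlapped and all were under the lowest of the array quartiles of 3.33, and its log2 fold change was 0.21 ± 0.08 (SE). Only Fgf21, an endocrine FGF, lay above the array medians, with arrays between 5.02 and 5.37 and a log2 fold change of -0.01 ± 0.08. The other endocrine ligands, Fgf15 and Fgf23, had 0.00 ± 0.09 and -0.02 ± 0.09. Fgf10, a ligand that mesenchymal cells send to epithelia, and Fgf18 and Fgf20, which act in hair follicles, had -0.02 ± 0.09, -0.01 ± 0.12 and -0.11 ± 0.06. Fgf6, Fgf16 and Fgf2os lay between -0.04 and 0.01. In all, 9 of the 10 lay below the array medians.

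Notch ligands and response genes did not pass either, where 4.47% of all genes were called higher and 4.43% lower. Of the 8, 2 had an unadjusted p under 0.05, beside 20.8% of all genes. These counts too are not a result about the family. Dll1, a Notch ligand of basal keratinocytes, read 7.29, 7.42, 7.45 and 7.45 in wild-type and 7.08, 7.32, 7.27 and 7.25 in knockout arrays. Wild-type replicate 1 and knockout replicate 2 crossed, so the groups overlapped, and the log2 fold change was -0.17 ± 0.07 (SE) with an adjusted p of 0.157 (limma). Hes1, a transcriptional repressor induced by Notch, read 8.77, 8.93, 8.96 and 8.91 in wild-type and 8.77, 8.79, 8.78 and 8.74 in knockout arrays. Wild-type replicate 1 lay among the knockout values, and the log2 fold change of -0.12 ± 0.05 had an adjusted p of 0.237.

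Hey1, another repressor induced by Notch, read 5.46, 5.62, 5.19 and 5.22 in wild-type and 5.17, 5.67, 5.29 and 5.35 in knockout arrays, with a log2 fold change of -0.00 ± 0.12 (SE). Its arrays spread more widely than those of Hes1, and the genotypes were mixed. Hes7, known from somite formation, had -0.04 ± 0.08. Hes2, Hes3 and Hey2 lay below the array medians with -0.00 ± 0.09, -0.06 ± 0.10 and -0.07 ± 0.09, and Dll3, a relative of Dll1 that does not activate Notch on other cells, had 0.04 ± 0.07.

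For the 44 members not called, all 95% intervals lay within -0.47 and 0.46 on the log2 scale, the lower bound set by Bmp6 and the upper by Wnt3. For the members below the array medians, a difference in the transcript could be hidden by background. The median SE was 0.08 for the 48 members and 0.07 for all genes.

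**Figure D3:**
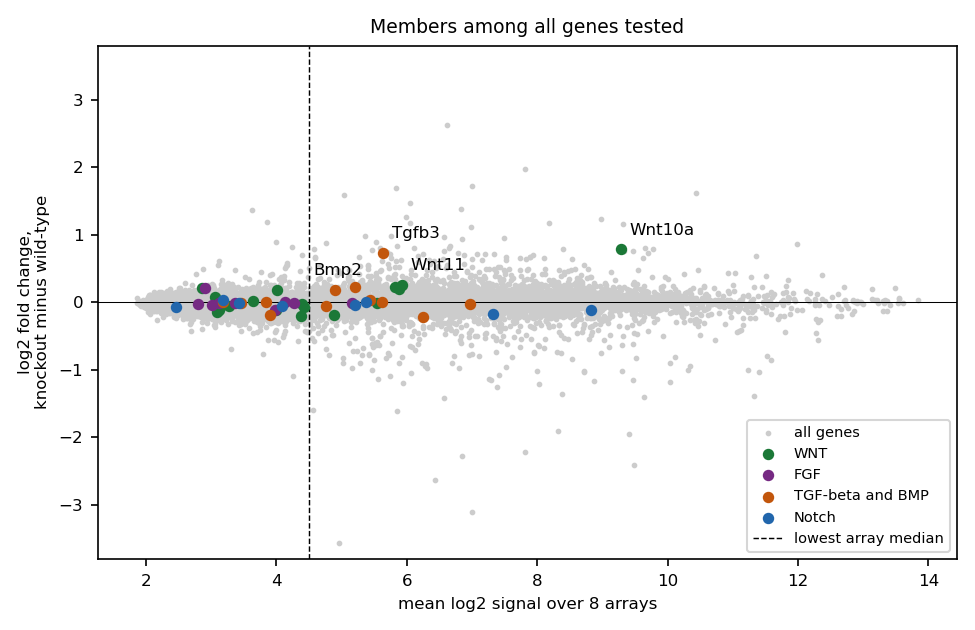
Log2 fold change, knockout minus wild-type, against mean log2 signal over the 8 arrays, for all genes in grey and the signalling genes in the colour of their family; the dashed line is the lowest array median, 4.49. The 4 labelled genes that rose lie to the right of the line, and most FGF genes lie to its left.

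Other genes of the same pathways, from lists of known pathway symbols, were read in the same fit. The counts of each list stand beside 4.47% of all genes called higher and 4.43% called lower. With so few genes called, these shares describe the lists and are not a result about the pathways. Of 54 listed WNT genes 15 were measured, and 1 rose (6.67%), none fell and 14 were not called, with a median of -0.02. The gene that rose was Celsr1, an adhesion receptor of epidermal planar polarity, with 7.19, 7.13, 7.10 and 7.25 in wild-type and 7.72, 7.71, 7.74 and 7.57 in knockout arrays. The groups did not overlap, and the log2 fold change was 0.52 ± 0.06 (SE, limma adjusted p = 0.000194). Response genes of beta-catenin signalling did not pass: Sp5, Notum and Rnf43, all induced by it, had -0.10 ± 0.08, -0.17 ± 0.06 and 0.14 ± 0.10 (limma adjusted p = 0.546, 0.1045 and 0.492). All knockout arrays of Notum lay below all its wild-type arrays, as in 7.97% of all genes, and Sp5 and Rnf43 overlapped. Porcn, the enzyme that adds the lipid that WNT ligands need, had 0.04 ± 0.05, and Lgr4, a receptor for R-spondins, had 0.11 ± 0.06.

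Of 59 listed genes of the TGF-beta and BMP branch 21 were measured. Of these, 2 rose (9.52%), 1 fell (4.76%) and 18 were not called, with a median of -0.07. Ccn2, which encodes connective tissue growth factor and is induced by TGF-beta, read 11.51, 11.57, 11.56 and 11.58 in wild-type and 12.45, 12.46, 12.46 and 12.31 in knockout arrays. The gap between the genotypes was wide, and the difference was 0.87 ± 0.05 on the log2 scale (SE, limma adjusted p = 2.12e-06). Id3, a target of BMP signalling that holds back differentiation, rose from 9.33 ± 0.08 to 9.64 ± 0.02 (SD over 4 arrays each), with a limma adjusted p of 0.00393. Its relative Id1, likewise a BMP target, had -0.13 ± 0.06 (SE) with an adjusted p of 0.285, and the difference between both genes was not tested. Grem1, the gene of the secreted BMP antagonist gremlin, fell from 8.74 ± 0.18 to 7.98 ± 0.14 (SD, n = 4 per group), a log2 fold change of -0.76 ± 0.09 (SE, limma adjusted p = 0.00039). Gremlin is also made by dermal fibroblasts, whose markers had a median log2 fold change of -0.54 in these arrays, and their part in the Grem1 value was not tested. Bambi, a decoy receptor, and Nog, the noggin gene, had -0.12 ± 0.07 and -0.06 ± 0.09.

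Of 36 listed FGF genes 9 were measured, and none rose, 2 fell (22.2%) and 7 were not called, with a median of -0.13. The 2 that fell encode secreted carriers that release FGF ligands from the matrix. Fgfbp1 read 10.65, 10.74, 10.81 and 10.77 in wild-type and 10.14, 10.36, 10.26 and 10.29 in knockout arrays, a log2 fold change of -0.48 ± 0.06 (SE, limma adjusted p = 0.000464). Fgfbp3 fell by 0.42 ± 0.08 (limma adjusted p = 0.00654), and in both genes the groups did not overlap. Feedback inhibitors of FGF and RAS signalling, Spry1 and Dusp6, had -0.06 ± 0.06 and 0.14 ± 0.05 with adjusted p of 0.6465 and 0.162 by limma. All knockout arrays of Dusp6 lay above all its wild-type arrays, as in 7.91% of all genes, and those of Spry1 overlapped. All cultures of both genotypes had been transduced with v-rasHa, and RAS activity and its part in these values were not tested.

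Of 41 listed Notch genes 11 were measured, and 1 rose (9.09%), none fell and 10 were not called, with a median of 0.06. Bhlhe40, a basic helix-loop-helix repressor related to the Hes family, rose from 10.71 ± 0.05 to 11.14 ± 0.07 (SD, n = 4 per group), a log2 fold change of 0.43 ± 0.05 (SE, limma adjusted p = 0.000425). Bhlhe40 also responds to hypoxia and cytokines and is not specific to Notch. Psenen, a subunit of the gamma-secretase that cleaves Notch, and Furin, which processes its precursor, had 0.06 ± 0.05 and 0.14 ± 0.06 (limma adjusted p = 0.579 and 0.216).

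**Figure D4:**
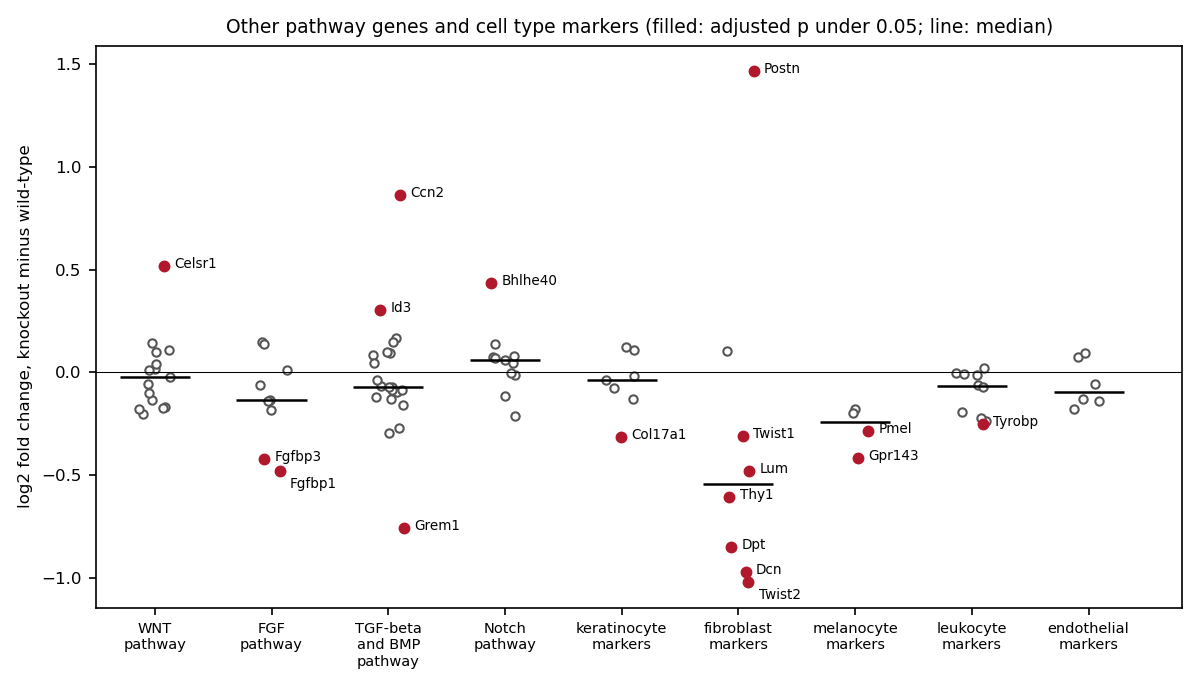
Log2 fold change, knockout minus wild-type, of the measured genes of 4 pathway lists and 5 cell type marker lists; filled red points passed an adjusted p of 0.05 in limma and are named, open points did not, and black lines are list medians. Most fibroblast markers lie below 0 with a median of -0.54, and the pathway lists have medians between -0.13 and 0.06.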

How the data were processed

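Per the labels, total RNA of 8 cultures was labelled with biotin. The table deposited by the authors lists 11373 probe sets on 8 arrays, and its values of 1.57 to 13.9 were read as log2 signals. Their summarisation, their normalization and any build are not stated in what was used here. Probe sets were named through the platform's annotation: 9374 had 1 symbol, 479 several and 1520 none. The probe set with the highest mean of the 8 arrays stood for a gene. All 48 members matched a RefSeq gene by Entrez identifier.

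All genes were fitted with limma 3.58.1 (lmFit, eBayes; R 4.3.3), without covariates, and p-values were adjusted by Benjamini-Hochberg over 9294 genes. The functions were tested on simulated data. The limma test sets the difference between genotypes against the spread between cultures of a genotype, and the number of arrays limits the precision. How many animals the cultures came from is not given, so this spread may not include that between animals. Difference SDs within a genotype were 0.157 to 0.175, so no array's values were a copy of another's. Whether the cultures were independent cannot be read from these SDs. Alternatives were repeated quantile normalization, median centring, dropping the 25% dimmest genes, averaging probe sets, trend and robust variance, a replicate block and leaving out each array. Values of every array are given for the 13 members with an unadjusted p under 0.05, which include those called. They are also given for Wnt5a, Bmp4 and Hey1, from a list of well-known epidermal members. Wnt3, Fzd6 and Sfrp2 of that list are named without them. Other members were named by role after their values were seen. Of each pathway list up to 4 called genes are named by rule, and the uncalled ones were chosen after their values were seen. The members and lists were chosen with earlier results of these data known. Promoter windows and their coordinates are from RefSeq, GRCm38.p6.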

Additional observations from a re-analysis of the deposited data

Results flagged for a closer look

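In 5 of 110 groups of 4 arrays, over 55 signalling and pathway genes, a single array stood apart from the other 3 by Dixon's criterion, and chance gives about 1 group in 20. All were in knockout arrays. Fgf15 read 4.356 in knockout replicate 1, where the others lay between 4.03 and 4.07. Fgf16 read 2.871 in knockout replicate 3, below 3.02 to 3.05 in the others. Knockout replicate 4 was the lowest in the other 3 genes. It read 4.775 for Smad6, below 5.04 to 5.09. It read 7.571 for Celsr1, below 7.71 to 7.74, and 12.312 for Ccn2, below 12.45 to 12.46. In Celsr1 and Ccn2 it still lay above all wild-type arrays.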

How the results depend on the processing

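The number of members that rose was 4, and it was 2 with the replicate number as a replicate block and 2 to 4 without each array in turn. Wnt10a and Tgfb3 passed in every run, and Wnt11 and Bmp2 were lost under the block (adjusted p = 0.0905 and 0.0915). Members that fell numbered 0, but 1 with repeated quantile normalization, with the lowest 25% of genes left out and with trend and robust variance (Tgfb1 each time), and 0 to 1 without each array. Deviations of same-numbered samples of the genotypes had correlations of -0.0491 to 0.0855, and those of unlike-numbered samples -0.101 to 0.113. The labels do not say whether equal numbers mark a shared preparation, and these correlations cannot decide it. Leaving out dim genes kept 31 of the 48 members. Over all genes 827 were called, with 598 to 687 without each array and 1134 with trend and robust variance. The split was 415 higher and 412 lower, and 482 higher and 314 lower with arrays centred on their medians, where the same 4 members rose. The called pathway genes kept their calls in all alternatives.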
